A study of Mus musculus with 3 samples.

Results

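The genes described here are 70 protein-coding genes whose transcripts were high in mouse granulosa cells 4 h after an ovulatory dose of human chorionic gonadotropin (hCG) and low both before it and at 12 h. They were chosen from these same values among 20504 coding genes. Levels are in FPKM, the number of fragments relative to transcript length and sequencing depth, and those of all coding isoforms were summed per gene. A gene was kept where the log2 fold of FPKM + 1 was at least 3 at 4 h over 0 h and -3 or lower at 12 h over 4 h, which is an 8-fold difference on each side of the peak. Both folds were met by 92 genes, and 22 of these are among 30 well-known ovulatory genes that the rule leaves out by name, such as Areg, Ptgs2, Tnfaip6 and Pgr. The height of the 4 h peak is therefore a description of how the genes were selected and not a result about them.

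Cells came from 3 groups of wild-type C57BL/6 female mice aged postnatal day 21 to 28. All groups had received 4 IU of equine chorionic gonadotropin (eCG) to grow follicles. The 0 h group was sampled before hCG, and the 4 h and 12 h groups were sampled at those times after 5 IU of hCG. Granulosa cells were collected by puncturing follicles, a procedure that does not sort cells, and RNA was taken from 3 mice per time. The labels give 1 library per time, the sources used here do not say whether RNA was pooled, and no difference below could be tested against the spread between mice. Intervals given with a level were deposited by the authors and cover the uncertainty of that library's estimate alone.

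Granulosa cells surround the oocyte and carry the luteinizing hormone receptor, through which hCG acts and raises cyclic AMP. In the hours that follow, kinase cascades and a wave of short-lived transcripts prepare the follicle to rupture, loosen the cumulus around the oocyte and start the change of granulosa cells into luteal cells. Transcripts of this kind encode secreted signals, their receptors, matrix and protease genes and feedback inhibitors, and many are made only for a part of the time between the hormone surge and ovulation.

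The depth read from the steps between low values lay between 11700000 and 13400000 fragments per library, and on a 2 kb transcript 1 fragment amounts to 0.0373, 0.0420 and 0.0427 FPKM at 0, 4 and 12 h. Granulosa identity was checked with 10 markers, all of which were measured. Their summed level was 12334, 9517 and 6797 FPKM at 0, 4 and 12 h, led by Inha, the inhibin alpha subunit, at 6986, 7163 and 3742 FPKM. The other 9 markers summed to 5348, 2353 and 3055 FPKM. At 4 h 5 of the 10 were at least 2-fold lower than at 0 h and 0 were higher, with Fshr, the receptor for follicle-stimulating hormone, at 133, 15.5 and 32.1 FPKM and Hsd17b1, an enzyme of estradiol synthesis, at 1065, 151 and 445 FPKM, and 4 were at least 2-fold higher at 12 h than at 4 h. The part of cell composition in the levels of the 70 genes was not tested. In bulk RNA of this kind, fewer cells of a type and less RNA per cell cannot be told apart.

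Over all coding genes the rise was met by 156 genes (0.761% of those measured), the fall by 102 (0.497%) and both by 92 (0.449%). Both folds share the 4 h library, so they are not independent of each other. The median level of the 70 genes was 1.8, 61.1 and 2.82 FPKM at 0, 4 and 12 h. Their summed level was 552, 12217 and 857 FPKM, or 0.139%, 2.63% and 0.225% of the sum over all coding genes. A single gene, Sfrp4, held 25.6% of the summed 4 h level. At 4 h 29 of the 70 genes stood at 100 FPKM or more, a level that 821 coding genes reached in that library. The 4 h interval lay above both other intervals in all 70 genes, which the 8-fold rule nearly sets in advance.

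The 70 genes entered the peak from unlike starting points. Before hCG 28 were under 1 FPKM, and 7 of these, Gcg, Msc, Ly6m, Ripply1, Cyp4f18, Zfp804a and S100a9, were listed at 0. At the other end, 17 genes stood at 10 FPKM or more at both 0 h and 12 h, among them Sfrp4, Rhox8, Hs3st1, Slc7a8 and Odc1, so that transcripts already present were higher for a limited time. At 0 h and 12 h alike, 20 genes were under 1 FPKM, and 8 of those reached 20 FPKM or more at 4 h, namely Arc, Ch25h, Enpp3, Gcg, Lrrn3, Msc, Slc5a7 and Snap91. The plot of levels by gene, which holds 68 of the 70, shows both kinds side by side.

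**Figure D1:**
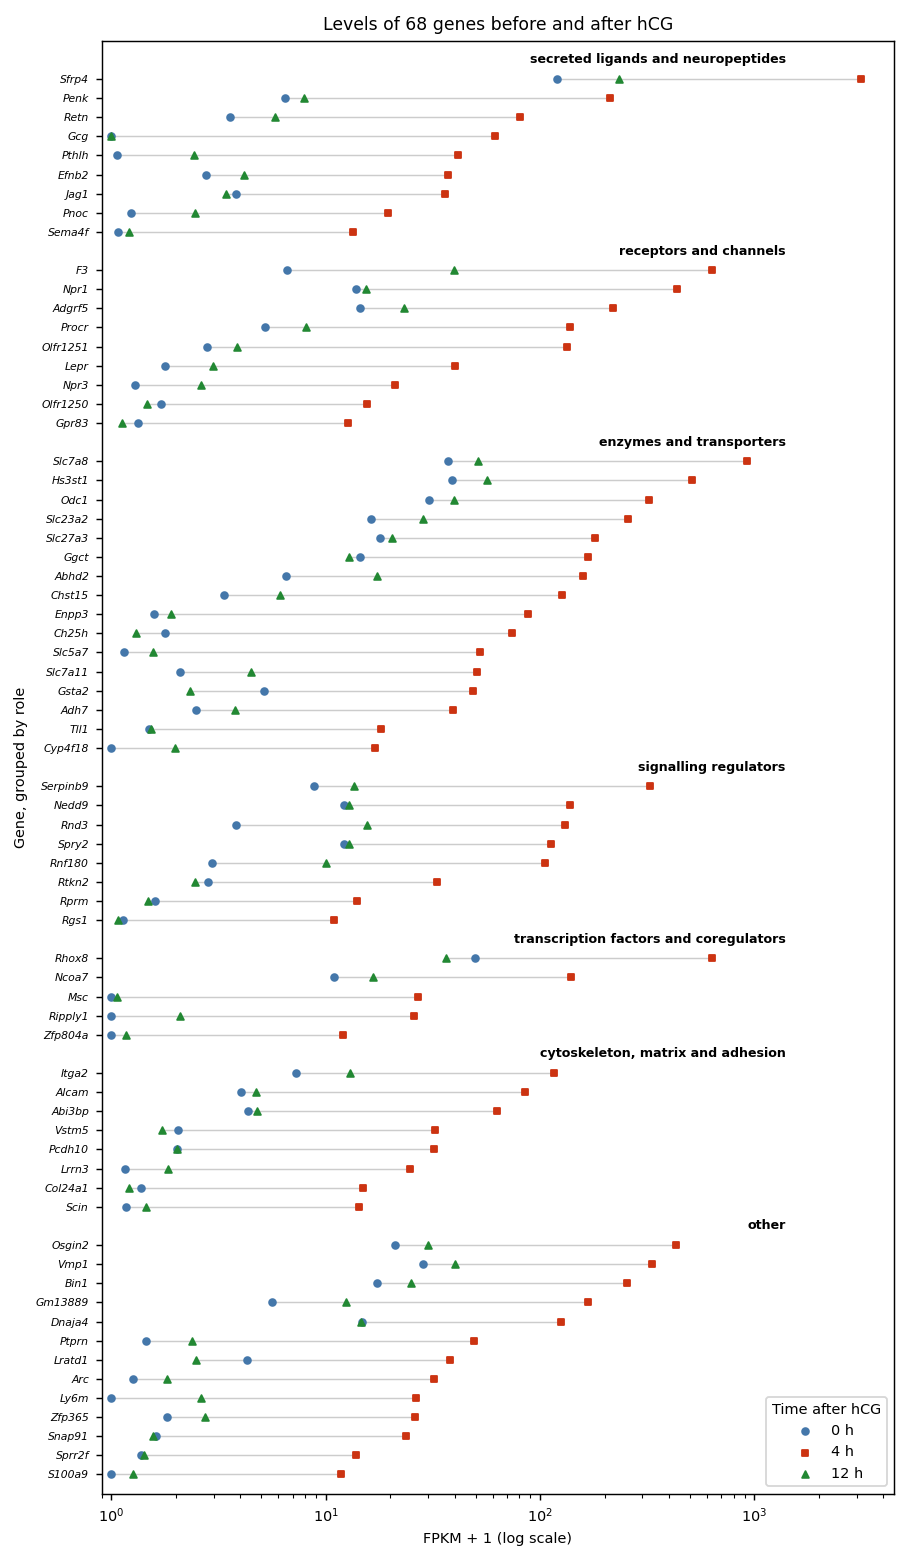
Level of 68 of the 70 genes as FPKM + 1 on a log axis at 0 h (circles), 4 h (squares) and 12 h (triangles) after hCG, 1 library per time, grouped by role and ordered by the 4 h level. Every square lies to the right of its gene's circle and triangle, as the rule demands, while circles run from genes listed at 0 to Sfrp4 at 119 FPKM.

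The threshold runs through a continuous range of genes. Just inside the rise were Dnaja4 (log2 4 h over 0 h of 3.09), Rprm (3.13) and Lratd1 (3.14), and just outside it were Gramd1b (2.96), Robo2 (2.88) and Aldh1l1 (2.80), which met the fall. Just inside the fall were Npr3 and Pnoc (log2 12 h over 4 h of -3.0 each) and Odc1 (-3.03), and just outside it were Mcemp1 (-3.0 after rounding), Ier5 (-2.97) and Kctd12 (-2.95). The genes outside had levels like those inside: Gramd1b was at 52.8, 419 and 44.0 FPKM at 0, 4 and 12 h, and Robo2, a receptor of the axon guidance protein Slit, at 11.7, 92.3 and 5.16 FPKM.

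**Figure D2:**
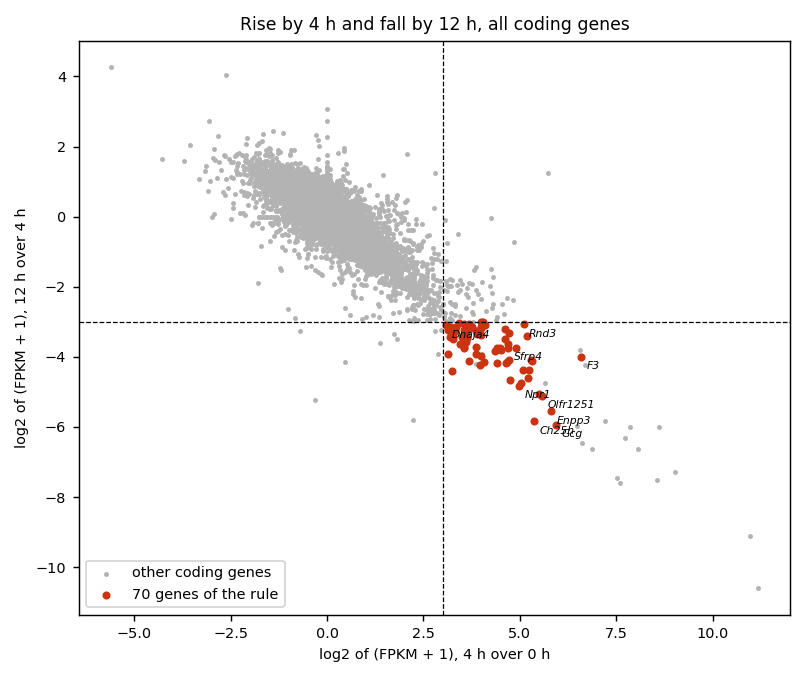
Each point is 1 coding gene, with the log2 fold of FPKM + 1 at 4 h over 0 h on the x axis and at 12 h over 4 h on the y axis; dashed lines mark the 2 thresholds. The 70 genes (red) fill the corner past both lines, and the 22 grey points in the same corner are the genes left out by name.

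A total of 9 secreted or membrane-bound ligands were among the 70, with a median of 1.75, 40.5 and 2.44 FPKM at 0, 4 and 12 h. Sfrp4, a secreted protein that binds Wnt ligands, was at 119, 3130 and 233 FPKM, with a 4 h interval of 3092 to 3167 FPKM. This was the highest 4 h level of the 70 genes, and Sfrp4 was also the 1 gene of the 70 above 100 FPKM in either flanking library. Among Wnt receptors, Fzd1 was at 2.92, 32.9 and 7.84 FPKM, Fzd7 at 7.72, 16.8 and 10.9 FPKM and Fzd4 at 4.20, 2.06 and 2.05 FPKM. Fzd1 thus peaked in the same library as Sfrp4 without meeting the fall.

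Peptide hormone precursors form a second group of ligands. Penk, the precursor of the enkephalins, was at 5.45, 211 and 6.91 FPKM at 0, 4 and 12 h. Gcg, which encodes glucagon and glucagon-like peptide 1 and is known from pancreas and gut, was listed at 0 before hCG, stood at 60.3 FPKM at 4 h with an interval of 51.1 to 69.5, and was again listed at 0 at 12 h. It was the only gene of the 70 listed at 0 in both flanking libraries. Pthlh, parathyroid hormone-related protein, was at 0.0581, 40.5 and 1.44 FPKM. Pnoc, the precursor of the opioid-related peptide nociceptin, was at 0.238, 18.6 and 1.45 FPKM, and Retn, the adipokine resistin, at 2.56, 79.8 and 4.77 FPKM.

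The start region of Gcg is shown because the gene was listed at 0 outside the peak. Start regions of 5 genes are printed here, each with its gene, and all give the 250 bases before the annotated start from RefSeq on GRCm38.p6, in lower case with the named motif in capitals. For Gcg the stretch is chr2:62483654-62483903 on the minus strand, and the capitals mark TATAAA, the TATA box, which starts 24 bases before the start of transcription, and its reverse complement 72 bases before it.
Gcg: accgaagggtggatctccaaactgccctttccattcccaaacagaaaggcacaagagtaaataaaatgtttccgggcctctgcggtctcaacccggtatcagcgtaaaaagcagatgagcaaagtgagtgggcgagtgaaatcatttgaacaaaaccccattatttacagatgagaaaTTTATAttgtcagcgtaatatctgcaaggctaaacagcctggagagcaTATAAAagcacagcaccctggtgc

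Enzymes that cut such precursors were looked at in the same libraries. Pcsk1, a prohormone convertase of secretory granules, was at 0.0376 FPKM at 12 h and listed at 0 in the earlier libraries, and Pcsk2, its relative, was at 0.230, 0.406 and 0.378 FPKM at 0, 4 and 12 h. Cpe, the carboxypeptidase that trims peptides after that cut, was at 886, 963 and 727 FPKM. The transcript level of both convertases thus stayed under 1 FPKM while their known substrate Penk stood at 211 FPKM. Receptors for these peptides were low or listed at 0. Oprm1, the mu opioid receptor, was listed at 0 in all 3 libraries, Oprd1, the delta receptor, did not exceed 0.0790 FPKM, Oprl1, the nociceptin receptor, was at 1.75, 0.551 and 1.37 FPKM, and Pth1r, the receptor for Pthlh, at 1.0, 0.794 and 1.13 FPKM.

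Ligands that act between touching cells were lower at the peak than the hormones with the highest levels. Efnb2, the membrane ligand of EphB receptors, was at 1.75, 36.3 and 3.17 FPKM at 0, 4 and 12 h, and Sema4f, a transmembrane semaphorin, at 0.0791, 12.4 and 0.203 FPKM. Jag1, a membrane ligand of Notch receptors, was at 2.80, 34.9 and 2.44 FPKM. Among receptors for Jag1, Notch2 was at 8.54, 56.4 and 15.1 FPKM and Notch1 at 0.971, 3.70 and 1.42 FPKM, while Notch3 and Notch4 did not exceed 0.648 FPKM. The EphB receptor with the highest level, Ephb4, was at 21.9, 18.3 and 18.7 FPKM and differed by less than 2-fold between times. Over the receptors of all ligand types above, peptide hormone, Wnt, Notch and EphB, 9 had at least 1 FPKM at 0 h or 4 h, with a median log2 4 h over 0 h of -0.16. Of the 9, Notch1, Notch2, Fzd1 and Fzd7 (4 genes) were at least 2-fold higher at 4 h, against 9.77% of 12498 coding genes, and 3 were with libraries rescaled to a common sum. That scaling also turns the balance over all coding genes, with 886 higher and 1579 lower at 4 h, against 1221 and 836 on the deposited scale. This list was drawn up after values were seen and is given as a description.

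There were 9 receptors among the 70, with a median of 1.8, 132 and 2.85 FPKM at 0, 4 and 12 h. F3, tissue factor, the membrane receptor for factor VII that starts blood clotting, was at 5.61, 633 and 38.7 FPKM. Its log2 4 h over 0 h of 6.58 was the largest of the 70 genes, and its 12 h interval of 33.8 to 43.5 FPKM lay above the 0 h interval of 4.00 to 7.22 FPKM. Procr, the endothelial receptor for protein C, a pathway that dampens clotting, was at 4.21, 137 and 7.06 FPKM. Other clotting genes were measured beside them. Thbd, thrombomodulin, was at 3.26, 11.7 and 4.08 FPKM, F2r, a thrombin receptor, at 8.58, 41.3 and 15.1 FPKM, and Tfpi, the inhibitor of the tissue factor complex, at 17.5, 26.3 and 24.4 FPKM. The soluble factors F7, F10 and Proc stayed at or under 0.373 FPKM in every library.

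The start region of F3 is shown because its fold was the largest. It spans chr3:121723287-121723536 on the plus strand, and the capitals mark TGANTCA, the core of sites bound by AP-1 factors such as Fos and Jun, which starts 146 and 135 bases before the start of transcription.
F3: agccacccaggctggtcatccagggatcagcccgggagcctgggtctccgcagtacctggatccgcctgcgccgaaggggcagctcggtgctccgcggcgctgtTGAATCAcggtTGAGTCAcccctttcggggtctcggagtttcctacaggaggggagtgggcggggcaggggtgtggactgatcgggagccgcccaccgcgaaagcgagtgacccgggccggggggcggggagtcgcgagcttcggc

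A pair of natriuretic peptide receptors shared the peak. Npr1, the guanylyl cyclase receptor for atrial and B-type natriuretic peptides, was at 12.8, 435 and 14.4 FPKM at 0, 4 and 12 h. Npr3, which clears natriuretic peptides from the cell surface, was at 0.282, 20.1 and 1.63 FPKM. The receptor and ligand known to hold the oocyte in meiotic arrest had another profile. Npr2, the receptor for C-type natriuretic peptide, was at 139, 84.0 and 112 FPKM, and Nppc, its ligand, was at 159, 15.0 and 32.5 FPKM, so that Nppc was lowest in the library where Npr1 and Npr3 were highest. The ligands of Npr1 were low, with Nppa listed at 0 before hCG and at 1.08 and 0.689 FPKM at 4 h and 12 h, and Nppb at 0.148 FPKM at 4 h and listed at 0 in the other libraries.

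Lepr, the receptor for the adipose hormone leptin, was at 0.772, 38.9 and 1.98 FPKM at 0, 4 and 12 h, while Lep, which encodes leptin, did not exceed 0.140 FPKM. Adgrf5, an adhesion G protein-coupled receptor known from lung and endothelium, was at 13.4, 219 and 22.1 FPKM. Gpr83, a G protein-coupled receptor known from brain and regulatory T cells, was at 0.328, 11.7 and 0.125 FPKM. Lepr and Adgrf5 kept intervals at 12 h above those at 0 h, and Gpr83 was under 1 FPKM on both sides.

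The remaining receptors belong to the olfactory receptor family, which is known from the sensory neurons of the nose. Olfr1251 was at 1.8, 132 and 2.85 FPKM at 0, 4 and 12 h, with a 4 h interval of 121 to 143 FPKM, and Olfr1250 was at 0.704, 14.6 and 0.458 FPKM. These genes lie 9489 bases apart on chromosome 2, Olfr1250 at 89656495 to 89657439 and Olfr1251 at 89666928 to 89667884 in GRCm38. Of 17 other olfactory receptor genes within 250 kb, 14 were listed at 0 in all libraries and the highest value was 0.392 FPKM. Across 1109 olfactory receptor genes in the file, 6 reached 1 FPKM at 4 h and 3 reached 5 FPKM. Members of this family are alike in sequence, so the split of fragments between them is uncertain.

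The 17 enzymes and transporters made up the largest role group, with a median of 2.36, 87.2 and 3.77 FPKM at 0, 4 and 12 h. Slc7a8, which exchanges large neutral amino acids, was at 36.3, 926 and 50.4 FPKM, the second highest 4 h level of the 70 genes, with an interval of 913 to 939 FPKM. Slc23a2, a sodium-dependent carrier of vitamin C, was at 15.2, 256 and 27.4 FPKM, and Slc27a3, of the fatty acid transport protein family, was at 16.9, 180 and 19.3 FPKM. Slc5a7, the choline transporter that nerve endings use to make acetylcholine, was at 0.151, 51.2 and 0.571 FPKM. Slc23a2 and Slc7a8 thus differed from Slc5a7 in being expressed before hCG.

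The 70 genes include 3 of cystine uptake and glutathione metabolism. Slc7a11, the cystine carrier, was at 1.09, 49.8 and 3.49 FPKM at 0, 4 and 12 h. Ggct, which acts in the breakdown of glutathione derivatives, was at 13.5, 167 and 11.8 FPKM, and Gsta2, a glutathione transferase, at 4.14, 47.8 and 1.32 FPKM. These 3 were chosen for their peak, so the list of glutathione and cystine genes was counted without them. Of its 8 other genes with at least 1 FPKM at 0 h or 4 h, 4 were at least 2-fold higher at 4 h, against 9.77% of 12498 coding genes, and 3 were with libraries rescaled to a common sum. Their median log2 fold was 0.88, against -0.01 over all coding genes, and by 12 h 4 were at least 2-fold lower than at 4 h, against 7.46% of all coding genes. Gsta1 was 1 of the 4 in both counts, although it stood at only 1.02 FPKM at 4 h and was listed at 0 otherwise. Slc3a2, the partner chain of Slc7a11 and Slc7a8, was at 109, 452 and 135 FPKM, and Gclc, the rate-limiting subunit of glutathione synthesis, at 34.0, 177 and 34.4 FPKM. Gclm, its modifier subunit, was at 27.0, 28.7 and 19.3 FPKM and Gsr, glutathione reductase, at 24.6, 32.8 and 36.5 FPKM, so that not all of the pathway shared the profile. The list was drawn up after values were seen, and Gsta2 has close copies between which fragments may be split.

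Polyamine synthesis was represented by Odc1, ornithine decarboxylase, its first enzyme, which was at 29.2, 323 and 38.7 FPKM at 0, 4 and 12 h. Of 7 other polyamine genes with at least 1 FPKM, a list also drawn up after values were seen, only Sat1 was at least 2-fold higher at 4 h, a share near the 9.77% of all coding genes. Sat1, which starts polyamine breakdown and export, was at 11.3, 83.2 and 13.8 FPKM. Srm and Sms, the spermidine and spermine synthases, were at 46.5, 70.4 and 73.0 FPKM and at 3.84, 6.01 and 3.69 FPKM. Both synthases differed by less than 2-fold between 0 h and 4 h.

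Sugar-chain sulfation enzymes were another pair. Hs3st1, which makes the heparan sulfate structure that binds antithrombin, was at 38.0, 512 and 55.4 FPKM at 0, 4 and 12 h. Chst15, which adds sulfate to chondroitin chains, was at 2.36, 125 and 5.14 FPKM. Both had 12 h intervals above their 0 h intervals. Abhd2, a serine hydrolase described in human sperm as a membrane target of progesterone, was at 5.52, 158 and 16.3 FPKM. Enpp3, an enzyme that cleaves extracellular nucleotides, was at 0.575, 87.2 and 0.891 FPKM.

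Ch25h, cholesterol 25-hydroxylase, which makes the signalling oxysterol 25-hydroxycholesterol, was at 0.783, 72.6 and 0.298 FPKM at 0, 4 and 12 h. Its 4 h interval of 66.1 to 79.2 FPKM stood against an upper bound of 1.57 FPKM at 0 h. The remaining enzymes were lower at 4 h. Adh7, an alcohol and retinol dehydrogenase, was at 1.49, 38.2 and 2.79 FPKM, Tll1, a metalloprotease related to Bmp1, at 0.490, 17.2 and 0.525 FPKM, and Cyp4f18, a cytochrome P450 that acts on fatty acids, was listed at 0 before hCG and stood at 16 and 0.973 FPKM at 4 h and 12 h.

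The start region of Ch25h is shown because it holds a full cyclic AMP response element. It spans chr19:34475149-34475398 on the minus strand, and the capitals mark TGACGTCA, which starts 61 bases before the start of transcription.
Ch25h: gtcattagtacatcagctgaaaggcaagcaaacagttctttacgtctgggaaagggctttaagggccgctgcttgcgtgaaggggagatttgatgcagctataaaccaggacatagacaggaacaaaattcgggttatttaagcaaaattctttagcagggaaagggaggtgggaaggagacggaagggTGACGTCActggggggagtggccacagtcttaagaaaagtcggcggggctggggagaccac

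Regulators of signalling inside the cell numbered 8, with a median of 2.39, 109 and 10.4 FPKM at 0, 4 and 12 h. Serpinb9, an inhibitor of the protease granzyme B, was at 7.82, 326 and 12.5 FPKM. Spry2, a feedback inhibitor of receptor tyrosine kinase signalling, was at 11.2, 112 and 11.9 FPKM, with 0 h and 12 h intervals that overlapped. Nedd9, an adaptor protein at sites of cell adhesion, was at 11.2, 137 and 11.8 FPKM. Rnd3, an atypical small GTPase that loosens actin fibres, was at 2.82, 130 and 14.6 FPKM, and Rnf180, a ubiquitin ligase, at 1.95, 105 and 9.03 FPKM. Spry2 and Nedd9 returned to their 0 h levels, while Rnd3 and Rnf180 remained well above theirs.

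At lower levels were Rtkn2, of the rhotekin family, at 1.81, 32 and 1.45 FPKM at 0, 4 and 12 h, and Rprm, a gene known from p53-dependent cell cycle arrest, at 0.60, 13.0 and 0.481 FPKM. Rgs1, which shortens G protein signalling and is best known from lymphocytes, was at 0.131, 9.97 and 0.0754 FPKM, the lowest 4 h level of the 70 genes. None of the 3 stood above its 0 h interval at 12 h.

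The start region of Rnd3, a gene that stayed high at 12 h relative to 0 h, is shown because it holds TATAAA. It spans chr2:51149112-51149361 on the minus strand, and the capitals mark TATAAA, which starts 28 bases before the start of transcription.
Rnd3: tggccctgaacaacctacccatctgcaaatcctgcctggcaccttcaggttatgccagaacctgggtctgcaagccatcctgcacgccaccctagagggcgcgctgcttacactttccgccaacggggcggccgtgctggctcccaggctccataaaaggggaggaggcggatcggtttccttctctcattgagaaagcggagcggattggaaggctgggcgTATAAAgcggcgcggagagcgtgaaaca

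Transcription factors and coregulators, grouped by the role known for the gene, numbered 5. Rhox8, an X-linked homeobox gene known from Sertoli and granulosa cells, was at 48.5, 630 and 35.3 FPKM at 0, 4 and 12 h. Ncoa7, a gene named for a nuclear receptor coactivator, was at 9.97, 139 and 15.7 FPKM. Most of the 4 h level of Ncoa7 lay in 1 of its 2 isoforms, NM_001111267, which held 53.6%, 91.8% and 73.2% of the gene's FPKM at the 3 times, while the other, NM_172495, was at 4.63, 11.5 and 4.20 FPKM. The transcript of NM_001111267 has 6 exons and 2026 bases, of which 1204 are 3′ UTR. Whether its product acts as a coactivator was not tested. The split between isoforms is an estimate from fragments they share.

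The other 3 genes of this group were listed at 0 before hCG. Msc, a basic helix-loop-helix repressor known from muscle precursors, was at 26.0 and 0.0575 FPKM at 4 h and 12 h. Ripply1, a corepressor adaptor known from the segmenting embryo, was at 24.9 and 1.08 FPKM, and Zfp804a, a zinc finger gene expressed in neurons, at 11.1 and 0.173 FPKM. Rhox8 and Ncoa7 were thus expressed throughout, and the others were near the limit of measurement outside the peak.

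The start region of Ripply1 is shown because it holds a pair of motifs close to each other. It spans chrX:139782354-139782603 on the minus strand, and the capitals mark TGANTCA, which starts 59 bases before the start of transcription, and TATAAA, which starts 42 bases before it.
Ripply1: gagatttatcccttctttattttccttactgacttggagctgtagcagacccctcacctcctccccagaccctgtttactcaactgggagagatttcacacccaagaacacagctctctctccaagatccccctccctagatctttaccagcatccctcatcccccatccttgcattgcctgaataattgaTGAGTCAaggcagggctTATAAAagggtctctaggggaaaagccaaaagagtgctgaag

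Start regions were searched on both strands from 250 bases before to 50 bases after the start, where TGACG also counts each TGACGTCA. Over 16390 coding genes of the table, 2.45% held TGACGTCA, 24.8% TGACG, 7.17% TGANTCA and 13.1% TATAAA, and 2.87% held TATAAA on the coding strand 20 to 40 bases before the start. The Egr motif GCGNGGGCG was in 7.87%, the Runx motif TGTGGT in 14.3%, the steroid receptor spacing ACANNNTGT in 5.83% and the E-box CACGTG in 8.27%. Only 54 of the 70 genes (77.1%) have a start region in the table, under the 80% set as the least for a comparison of shares. That comparison is therefore void and the 5 stretches above stand as examples. Each was picked together with a motif that it holds, so they do not show how common a motif is among the 70. Most of the 54 start regions lacked TGACGTCA, and the same was true of TGANTCA and of TATAAA. A match is a string of letters and says nothing about binding.

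Adhesion, matrix and cytoskeleton genes numbered 8, with a median of 1.03, 31.2 and 0.934 FPKM at 0, 4 and 12 h. Itga2, the alpha chain of a collagen-binding integrin, was at 6.29, 115 and 12.0 FPKM. Alcam, a cell adhesion molecule of the immunoglobulin family, was at 3.01, 84.4 and 3.72 FPKM, and Abi3bp, a secreted matrix protein, at 3.36, 61.8 and 3.78 FPKM. Col24a1, a fibrillar collagen, was at 0.368, 14 and 0.210 FPKM, and Scin, an actin-severing protein, at 0.166, 13.3 and 0.443 FPKM. Among neuronal adhesion genes, Pcdh10, a protocadherin, was at 1.02, 31.1 and 1.03 FPKM, Vstm5 at 1.05, 31.3 and 0.722 FPKM and Lrrn3 at 0.160, 23.6 and 0.837 FPKM. Itga2 alone of the 8 was above 10 FPKM at 12 h.

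The last group holds 14 genes of other or mixed roles. Osgin2, related to an oxidative stress-induced growth inhibitor, was at 20, 429 and 29 FPKM at 0, 4 and 12 h, and Vmp1, a membrane protein needed for autophagosomes, at 27.5, 331 and 39.0 FPKM. Bin1, which bends membranes in endocytosis, was at 16.3, 254 and 23.9 FPKM. Dnaja4, a heat shock co-chaperone, was at 13.7, 124 and 13.6 FPKM, with nearly equal levels before hCG and at 12 h.

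Among them are Ptprn, Arc and Snap91, which are best known from neurons and endocrine cells. Ptprn, a protein of dense-core vesicle membranes, was at 0.451, 48.3 and 1.37 FPKM at 0, 4 and 12 h. Arc, an immediate-early gene of active synapses, was at 0.262, 30.9 and 0.813 FPKM, and Snap91, which assembles clathrin coats on synaptic vesicles, at 0.617, 22.6 and 0.571 FPKM. All 3 were under 1 FPKM before hCG.

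The others of the group were Gm13889 at 4.61, 167 and 11.4 FPKM at 0, 4 and 12 h, Lratd1 at 3.30, 36.9 and 1.49 FPKM, Zfp365 at 0.814, 25.2 and 1.74 FPKM, and Sprr2f, of the small proline-rich proteins of cornified epithelium, at 0.370, 12.8 and 0.424 FPKM. Ly6m, of the Ly6 surface protein family, was listed at 0 before hCG and stood at 25.4 and 1.63 FPKM at 4 h and 12 h. S100a9, a calcium-binding protein abundant in neutrophils, was likewise listed at 0 at 0 h and stood at 10.8 and 0.266 FPKM at 4 h and 12 h. Sprr2f, Serpinb9 and Ly6m belong to clusters of like sequence, where the division of fragments is uncertain.

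Markers of other cells were counted beside these genes, since puncture can release them. Of 7 neutrophil markers, 3 had at least 1 FPKM at 0 h or 4 h and all 3 were at least 2-fold higher at 4 h, S100a9, fixed by the rule, among them, and the list sum was 1.93, 24.5 and 3.61 FPKM at 0, 4 and 12 h. S100a8 was at 1.59, 10.2 and 0.463 FPKM and Camp reached 2.32 FPKM at 4 h and 2.82 FPKM at 12 h, while Ngp was listed at 0 in all libraries and Cxcr2, Mmp9 and Retnlg did not exceed 0.632 FPKM. Their part in the S100a9 value was not tested. Endothelial markers, relevant to Procr and Adgrf5, summed to 18.7, 46.0 and 18.9 FPKM. Of 7 with at least 1 FPKM, 3 were at least 2-fold higher at 4 h (2 with libraries rescaled to a common sum), namely Kdr at 1.54, 7.92 and 1.24 FPKM, Emcn at 2.77, 8.0 and 2.75 FPKM and Esam at 2.81, 8.29 and 3.96 FPKM. Cdh5 was at 5.59, 10.9 and 5.98 FPKM, Pecam1 at 2.83, 5.01 and 2.83 FPKM and Vwf at or under 0.243 FPKM. The part of these cells in the Procr and Adgrf5 values was not tested. Leukocyte markers summed to 78.5, 119 and 125 FPKM, and 3 of 9 were at least 2-fold higher at 4 h, Cd68 at 2.09, 7.57 and 6.57 FPKM, Cd14 at 1.13, 4.31 and 2.41 FPKM and Cd52 at 4.01, 11.2 and 17.5 FPKM. Ptprc, which marks all leukocytes, was at 0.489, 0.489 and 0.521 FPKM, and the part of leukocytes in the Rgs1, Serpinb9 and Ly6m values was not tested. Surface epithelium markers summed to 65.2, 156 and 99.4 FPKM, with 4 of 8 at least 2-fold higher at 4 h (2 after that rescaling), and their part in the Sprr2f and Itga2 values was not tested. Oocyte markers summed to 224, 176 and 316 FPKM, theca and stroma markers to 304, 329 and 309 FPKM, smooth muscle markers to 126, 191 and 187 FPKM, and erythroid markers to 540, 445 and 377 FPKM.

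The level at 12 h was also set against that at 0 h. The rule leaves the direction of this difference free, although it is built from the same levels. Genes less than 8-fold below their 4 h level at 12 h had been left out. The counts therefore describe the genes chosen, and shares over all coding genes are given for scale. Of the 70 genes 50 had at least 1 FPKM in 1 of these libraries. At 12 h 11 of the 50 were at least 2-fold higher than at 0 h, against 2.83% of 12317 coding genes, 1 was at least 2-fold lower, against 2.06%, and 38 were neither. The median log2 12 h over 0 h was 0.46 for the 70 genes and -0.01 for the coding genes compared. The value at 12 h was higher than at 0 h in 53 genes and lower in 16, and Gcg was listed at 0 at both times. By the deposited intervals, 27 genes stood above their 0 h interval at 12 h, 1 stood below it and 42 overlapped. The same counts were not made over all coding genes, so they cannot be read as a trait of the 70.

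Among the 11 genes higher at 12 h were Abhd2, F3, Gm13889, Ly6m, Npr3, Pthlh, Ripply1, Rnd3, Rnf180 and Slc7a11. F3 had the largest log2 12 h over 0 h, 2.59, followed by Rnd3 at 2.03 and Rnf180 at 1.77. Ly6m and Ripply1 are compared with a value listed at 0 and have no fold, and the 12 h interval of Ripply1, 0 to 2.54 FPKM, reaches that value. The intervals of the other 10 genes lay apart. The gene that was lower was Gsta2, at 1.32 FPKM with an interval of 0 to 2.67 at 12 h and 4.14 FPKM with an interval of 2.01 to 6.26 at 0 h, and these intervals overlap. A threshold of 3-fold left 3 genes higher and 0 lower.

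**Figure D3:**
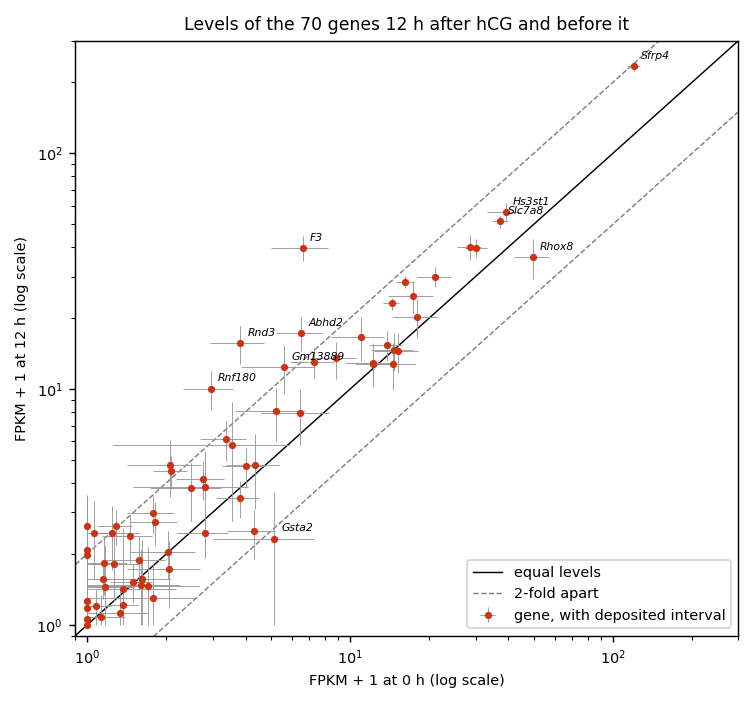
FPKM + 1 at 12 h (y axis) against FPKM + 1 at 0 h (x axis) for the 70 genes, both on log axes, with the deposited intervals of each library; the solid line marks equal levels and dashed lines a 2-fold difference. F3, Rnd3 and Rnf180 lie farthest above the upper dashed line, and most other genes lie between the lines.

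Signalling lists known from other cells and from ovulation were laid beside the 70 genes, of which 2, Spry2 and Pthlh, belong to any of the 9 lists. That number is set in part by the rule, since genes left out by name, such as Areg, Pde4b, Egr3, Vcan, Tnfaip6 and Pgr, are on these lists and met both folds. The lists are counted here without Spry2 and Pthlh. Of 20 cyclic AMP and CREB target genes with at least 1 FPKM, 15 were at least 2-fold higher and 1 lower at 4 h than at 0 h. Their median log2 fold was 2.1. Over all coding genes 9.77% were higher and 6.69% lower at 4 h. Of 20 MAPK response genes 14 were higher and 1 lower (median 2.04). Sik1, a kinase induced by cyclic AMP, was at 3.41, 40.4 and 10.9 FPKM at 0, 4 and 12 h, and Dusp6, which switches off ERK, at 4.59, 50.7 and 12.1 FPKM. By 12 h 15 of the cyclic AMP list and 14 of the MAPK list were at least 2-fold lower than at 4 h and 0 were higher. Over all coding genes 7.46% were lower and 4.50% higher at 12 h than at 4 h. Rescaled libraries gave 11 of the cyclic AMP list and, with Spry2, 14 of 21 of the MAPK list lower, and 1 higher in each.

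Among 23 secreted cytokines and growth factors 11 were higher and 2 lower at 4 h (median 0.97), and Clcf1, a cytokine of the Il6 family, was at 1.24, 14 and 7.10 FPKM at 0, 4 and 12 h. Of 19 matrix and protease genes of ovulation 13 were higher and 0 lower (median 2.65). The progesterone receptor gene Pgr and its known targets, 19 genes, gave 13 higher and 0 lower (median 2.1). Genes that met both folds but were left out by name are inside these counts, 4 in the matrix list and 6 in the progesterone receptor list. The cyclic AMP list above holds 3 such genes and the MAPK list 1. The lists below of transcription factors, regulated secretion genes and G protein-coupled receptors hold 1 each. Rapidly induced transcription factors gave 23 higher and 1 lower of 39 (median 1.44), with Runx2, a factor of the luteinizing follicle, at 0.261, 28.5 and 4.25 FPKM and Junb, an AP-1 subunit, at 8.10, 95.5 and 21.0 FPKM. Regulated secretion genes gave 5 higher and 0 lower of 15 (median 0.34), G protein-coupled receptors 5 higher and 1 lower of 20 (median 0.71), and ion channel and calcium genes 3 higher and 3 lower of 22 (median -0.05). By median the last 3 lists stood nearer to the -0.01 over all coding genes, of which 9.77% were higher and 6.69% lower. The counts of 5 of 15 and 5 of 20 higher were above that share, and 3 of 22 was nearer to it. Junb and Runx2, like Sik1 and Dusp6, were lower at 12 h than at 4 h without reaching 8-fold. With libraries rescaled to a common sum the count of higher genes moved by 1 in the list of transcription factors (22) and by 0 in the other 8 lists.

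The position of the 70 genes was not used to choose them. They lay on 20 chromosomes, with 10 genes on chromosome 2, the adjacent Olfr1250 and Olfr1251 among them, and 9 on chromosome 3. These counts were not set against the number of coding genes on each chromosome. Within 50 kb were 88 other coding genes with at least 1 FPKM at 0 h or 4 h, of which 21 (23.9%) were at least 2-fold higher at 4 h and 7 (7.95%) at least 2-fold lower. Away from the 70 genes, 8.94% of 12307 coding genes were higher and 6.74% lower. A 2-fold rise and a 2-fold fall by 12 h were both met by 15 neighbours (17.0%) and by 5.34% of the other genes. In windows of 10, 20 and 100 kb the share higher at 4 h was 35.0% of 20, 30.6% of 36 and 23.6% of 144 neighbours. With libraries rescaled to a common sum, the share within 50 kb was 19.3%, against 6.26% of the other genes. Neighbours of 1 gene share a locus, related genes lie side by side in clusters, and no test was made.

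**Figure D4:**
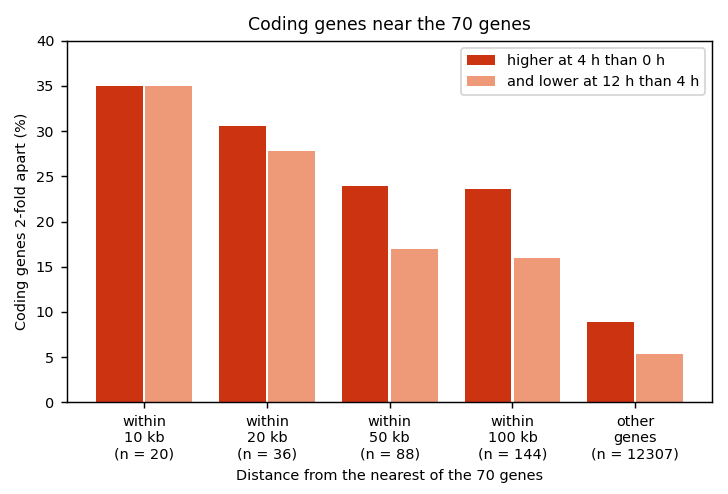
Share of coding genes that were at least 2-fold higher at 4 h than at 0 h (dark bars) and of those that were also at least 2-fold lower at 12 h than at 4 h (light bars), by distance from the nearest of the 70 genes, with the other coding genes at the right. The dark bars stand at 35.0%, 30.6%, 23.9% and 23.6% for windows of 10, 20, 50 and 100 kb, against 8.94% for other genes.

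Some single neighbours had the same profile at a smaller size. Ints3, an Integrator complex subunit, lies 545 bases from Slc27a3 and 16955 bases from Npr1 on chromosome 3 and was at 29.4, 84.8 and 27.6 FPKM at 0, 4 and 12 h. Epdr1 lies 3345 bases from Sfrp4 on chromosome 13 and was at 26.4, 126 and 49.4 FPKM. Cltc, the clathrin heavy chain, lies 10516 bases from Vmp1 on chromosome 11 and was at 65.3, 283 and 77.0 FPKM. None of these 3 neighbours reached the 8-fold rise. Other close neighbours differed by less than 2-fold between 0 h and 4 h. Ptrh2, between Vmp1 and Cltc and 238 bases from Vmp1, was at 12.2, 9.72 and 14.5 FPKM at 0, 4 and 12 h. Slx4ip, 100 bases from Jag1, was at 2.57, 2.04 and 3.33 FPKM, and Tfg, 194 bases from Abi3bp, at 106, 89.3 and 69.2 FPKM. Within 10 kb, 7 of 20 neighbours were at least 2-fold higher at 4 h. The sources used here do not say whether counting used the strand, so fragments of transcripts that run into a neighbour cannot be told apart from its own.

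Other neighbours that rose at 4 h had lower levels there. Serpinb9b, a relative of Serpinb9 that lies 9459 bases from it on chromosome 13, was at 1.04, 22.2 and 5.13 FPKM at 0, 4 and 12 h. Mcemp1, 5944 bases from Retn on chromosome 8, was at 7.72 and 0.0915 FPKM at 4 h and 12 h and listed at 0 at 0 h, just outside the rule. Cblb, a ubiquitin ligase gene 40949 bases from Alcam on chromosome 16, was at 6.64, 33.7 and 10.2 FPKM. The neighbours named so far as rising are among the 21 of 88 that were at least 2-fold higher at 4 h, whereas 7 were at least 2-fold lower. Of those 7, Rassf2 near Slc23a2 was at 22.8, 3.56 and 14.2 FPKM and Hey2 near Ncoa7 at 70.1, 15.1 and 25.2 FPKM.

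AU-rich elements, stretches such as ATTTA in the DNA of the 3′ untranslated region (UTR), are known to shorten the life of many immediate-early transcripts. A transcript in GENCODE M21 was found for all 70 genes, and 69 had a 3′ UTR of at least 50 bases, with a median length of 893 bases, against 954 bases over 12324 coding genes with at least 1 FPKM in a library. The pentamer ATTTA was in 69.6% of the 69 and in 66.4% of the 12324 coding genes, a set that includes the 69. The longer TATTTAT, which contains it, was in 26 of 69 (37.7%) and in 27.5% of the coding genes. The 3′ UTRs of the 70 genes were also richer in A and T, with a median of 60%, against 55.5%, and the part of base composition was not tested. Below 500 bases 20% of 20 genes had TATTTAT, against 7.36% of 3775 coding genes, and from 500 to below 1500 bases 42.9% of 21, against 23.5% of 4328. From 1500 bases on the order was the other way, 46.4% of 28 against 49.7% of 4221, although copies per kb of sequence were 0.312 against 0.278. Short UTRs thus had the larger difference, on counts of 4 and 9 genes.

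**Figure D5:**
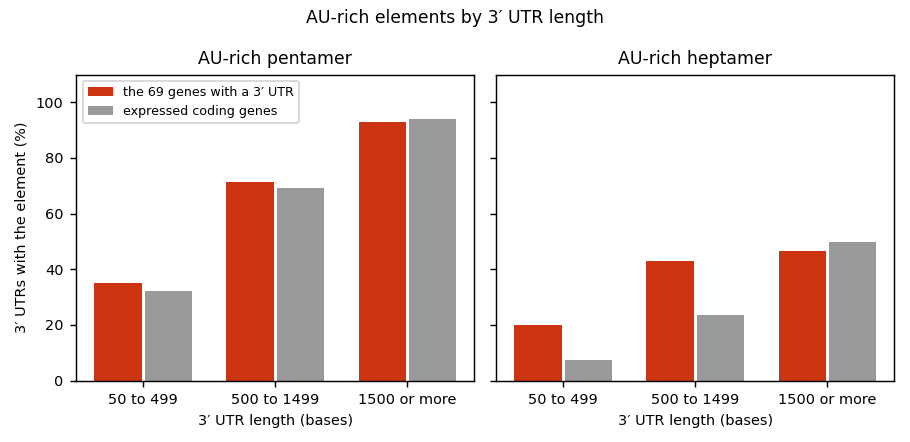
Share of 3′ UTRs that hold the AU-rich pentamer (left) or heptamer (right), by 3′ UTR length, for the 69 genes (red) and for coding genes with at least 1 FPKM in a library (grey). The pentamer shares lie close together in each length class, and the heptamer shares differ below 1500 bases, 20% against 7.36% and 42.9% against 23.5%.

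The genes with the most copies of TATTTAT were Jag1 with 5, Zfp365 with 4, and Slc5a7 and Ncoa7 with 3 each. A stretch of 30 bases of each is shown to place the element, in the sense of the transcript from GENCODE M21 and in lower case with ATTTA in capitals, counted from the first base after the stop codon.
Jag1, bases 326 to 355 of 1568, chromosome 2: ccttaggatcatagttttATTTAtATTTAt
Zfp365, bases 720 to 749 of 2727, chromosome 10: tcacatctgggtcctccagggcctATTTAt
Slc5a7, bases 2182 to 2211 of 2928, chromosome 17: tgagagaagaatcctaaagtATTTATTTAt
Ncoa7, bases 634 to 663 of 1204, chromosome 10: attATTTAgggtaatataatctttATTTAt
The 4 h levels of these 4 genes ran from 25.2 FPKM for Zfp365 to 139 FPKM for Ncoa7.

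The median transcript of the 70 genes had 6 exons and 2911 bases, against 9 exons and 2840 bases over coding genes with at least 1 FPKM and 7 exons and 2456 bases over all 20504 coding genes. A single exon was annotated for 5 of the 70 (7.14%), namely Ch25h, Gm13889, Olfr1250, Olfr1251 and Rprm, against 2.11% of the expressed and 10.1% of all coding genes, so the direction depends on the set compared. In 55 of the 70 genes the file holds 1 coding isoform. Where there were several, shares at levels under 1 FPKM are not interpretable. Of those above it at all times, Retn kept 92.5% or more and Nedd9 nearly all of its level in 1 isoform, and Bin1 kept 93.7% or more. The isoform shares of Ncoa7 differed between times, as given above. The main isoform of Abi3bp held 78.2%, 77.7% and 87.9% at 0, 4 and 12 h, and another held 21.8% at 0 h and 0% at 12 h. In Pcdh10, at 1.02 and 1.03 FPKM in the flanking libraries, 1 isoform held 35.8%, 56.5% and 63.9%.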

How the data were processed

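Granulosa cell messenger RNA was measured in 3 libraries, 1 at each of 0, 4 and 12 h. The deposited FPKM values are those of RefSeq isoforms with a lower and an upper bound, whose level is not stated. Per the submitters' processing notes, CASAVA 1.8, TopHat2 2.1.1, Cufflinks 2.2.1 and mm10 were used. Of 34535 isoforms 34169 were matched to symbols through RefSeq for GRCm38.p6, 193 through GENCODE M21, and 173 had no match. Coding isoforms were summed per gene, and the widths of their intervals were added in quadrature, as if isoform estimates were independent. None of the 12 failed isoform estimates touched the 70 genes.

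Folds are log2 of FPKM + 1. Genes were called at 2-fold where either library compared had 1 FPKM or more. This is a rule of size: without replicates no p-value was computed. A value of 0 may be a failed estimate and is given as listed at 0. FPKM depends on annotated length and on isoform assignment, which can split fragments of like genes, and on the composition of each library. Depth was read from the steps of low values, of which 68.5% to 70.5% lay within 0.1 of a whole fragment, where spacing alone gives 20%.

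The 70 genes, the gene lists and the tests were chosen with earlier results of these data known. Of the 70, 68 are named and 2 are counted but not reported here by name. They are ordered by 4 h level within a role, and other genes come from the lists, from the threshold or from positions near the 70. Neighbours within 50 kb and the lists of ligand partners, glutathione and polyamine genes were added after values were seen. Promoters are from RefSeq. Alternatives were pseudocounts of 0.1 and 5 FPKM, rescaling to a common sum, median-of-ratios scaling, other isoform sums and other thresholds. The steps were tested on simulated data, with fragments drawn at random from the 0 h levels and no spread between mice. The rule called 0 of 50 genes given a 4-fold peak, 2 of 50 given an 8-fold peak and 50 of 50 given a 16-fold peak. Peaks close to 8-fold are thus mostly missed. Python 3.11.15, numpy 2.4.6, pandas 2.3.3 and matplotlib 3.10.9 were used.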

Additional observations from a re-analysis of the deposited data

Results flagged for a closer look

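Noncoding isoforms stand outside the coding sums used above. Of 4270 genes with such isoforms 38 met the same rise and fall, and 34 of these were microRNA or snoRNA genes. A level of 0 was listed at both 0 h and 12 h for 34 of the 38. They are given because no comparison above used them. Among coding genes 0.449% met both folds. FPKM depends on annotated length and on isoform assignment, and the part of these in the noncoding values was not tested. The noncoding isoform of Etfb, whose coding product passes electrons to the respiratory chain, was at 0.0204, 43.2 and 0.00464 FPKM at 0, 4 and 12 h, while the coding isoforms were at 153, 41.9 and 124 FPKM.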

How the results depend on the processing

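The rule gave 70 genes. With a pseudocount of 0.1 FPKM it gave 151 genes, all 70 included, with 337 genes meeting the rise and 249 the fall, and 2 of the 70 lay at least 2-fold below 0 h at 12 h. With a pseudocount of 5 FPKM it gave 27 genes, all among the 70, with 80 for the rise and 53 for the fall, and 4 of the 70 were at least 2-fold higher and 0 lower at 12 h than at 0 h. Rescaling libraries to a common sum, which moves the median log2 of all genes at 4 h over 0 h to -0.28, left 46 of the 70, and the share of higher calls among genes 2-fold apart at 4 h was 35.9% in place of 59.4%. A log2 threshold of 2 gave 210 genes (399 for the rise, 275 for the fall) and a threshold of 4 gave 18 (68 and 41). At 3-fold, 3 genes were higher and 0 lower at 12 h than at 0 h. Median-of-ratios scaling, other isoform sums, a floor of 20 FPKM and intervals apart gave 57 to 77 genes. The floor and the intervals were applied to the 70 genes alone, so neither could add a gene. Under every pseudocount, scaling and isoform setting 23 of the 70 met the rule. No paired analysis was possible because each time has 1 library. Depth limits levels under 1 FPKM, where a few fragments set the fold.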

Other observations

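Genes of low level with the same shape entered the rule when the pseudocount was 0.1 FPKM, 81 in number, and those named here were picked after their values were seen. Calca, the precursor of calcitonin and its related peptide, was at 0.190, 5.09 and 0.495 FPKM at 0, 4 and 12 h, and Pdyn, the precursor of the dynorphins, was listed at 0, at 1.74 FPKM and again at 0. Hey1, known as a target of Notch signalling, was at 1.95, 23.6 and 2.66 FPKM. Hhip, which binds hedgehog ligands, was at 0.827, 11.6 and 1.15 FPKM, and Gfra1, a receptor of the neurotrophic factor Gdnf, at 0.276, 7.67 and 0.288 FPKM. Ramp3, a partner of calcitonin-family receptors, was at 0.810, 10.9 and 1.19 FPKM.

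Taking only the isoform with the highest mean level added 9 genes, among them Ephx2, soluble epoxide hydrolase, and Acsl4, which activates arachidonic acid. As sums of isoforms Ephx2 was at 472, 4700 and 795 FPKM and Acsl4 at 21.5, 307 and 44.4 FPKM at 0, 4 and 12 h.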
